A study of Mus musculus with 9 samples.

Results

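The nuclear genome supplies most of the protein subunits of the respiratory chain, and 88 genes for them were followed here in the injured mouse lung. They were chosen from a table of 52381 genes by symbol prefix (Ndufa, Ndufb, Ndufc, Ndufs, Ndufv, Sdha to Sdhd, Uqcr, Cox4 to Cox8 and Atp5), which named 116 rows. Of these, 14 were dropped as numbered pseudogenes or Ndufaf assembly factors, and a further 14 were not kept because they did not reach an FPKM of 1 in 4 libraries. FPKM scales the fragments of a gene to its length and to the mapped fragments of the library, so levels of different genes can be set side by side. The rule used the measured level but not the difference between the groups, though the members were chosen with earlier results of these data known. The 88 genes comprise 85 subunits and 3 assembly factors of complex II (Sdhaf1, Sdhaf2 and Sdhaf4). In GENCODE M21, 86 of the 88 are protein-coding. Ndufb4c, a processed pseudogene, and Ndufb1-ps, a bidirectional promoter long non-coding RNA, were counted with complex I by their symbols. The subunits fall into 38 of complex I, 4 of complex II, 8 of complex III, 18 of complex IV and 17 of complex V. Ndufa4 and its paralogue Ndufa4l2, named for complex I, were counted in complex IV, where Ndufa4 is now placed.

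The study sequenced RNA from mouse lungs with acute injury caused by lipopolysaccharide (LPS-ALI), a component of the bacterial envelope. The LPS-ALI group holds 4 mice with injury alone, and the TMAO group holds 5 mice with the same injury that also received trimethylamine N-oxide, a metabolite that arises from gut bacterial products. All 9 mice had the injury, uninjured lungs are not analysed here, and no source used here gives strain, age, sex, dose or timing. The labels name lung as the tissue, while their extraction text speaks of platelets.

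The lung markers were present in all 9 libraries. Sftpc, the surfactant protein of alveolar type 2 cells, ranged from 3842 to 9809 FPKM in 8 libraries and was at 709.7 in LPS-ALI replicate 4, and Pf4, a platelet chemokine, from 12.6 to 54.2. TMAO replicate 5 stood apart. Its median tested gene was at 1.74 on the log2(FPKM + 1) scale, against 2.74 to 3.35 in the other 8 libraries, and it had the lowest relative depth (0.351 of the deepest library, from the spacing of low values). Genes of the mitochondrial genome held 52.2% of its summed FPKM, against 33.4% to 49.3% elsewhere. LPS-ALI replicate 4 stood apart in its cell markers. Its 8 alveolar type 2 markers summed to 1288 FPKM against 4923 to 14778 elsewhere, and its 5 erythroid markers to 2326 against 124 to 291. Its 6 alveolar type 1 markers summed to 2717 against 574 to 1331, mostly through Hopx, at 2127 against 252 to 619 elsewhere. Aqp5 was also highest there (94.7), while Ager, Clic5, Pdpn and Rtkn2 were within the range of the other libraries. LPS-ALI replicates 3 and 4 carry library codes that begin with X, and all other libraries carry codes that begin with B. The labels do not explain the code. Results are therefore also given without TMAO replicate 5, without it and LPS-ALI replicate 4 together, and without the X-coded libraries where these change them.

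The respiratory chain sits in the inner mitochondrial membrane. Complexes I (NADH dehydrogenase) and II (succinate dehydrogenase) pass electrons to ubiquinone, complex III (cytochrome bc1) hands them on to cytochrome c, and complex IV (cytochrome c oxidase) reduces oxygen. Complexes I, III and IV pump protons, and complex V (ATP synthase) uses the gradient to make ATP. Complex II is encoded in the nucleus alone, whereas the other complexes also hold subunits from the mitochondrial genome. Several complex IV subunits exist as a widely expressed gene and a partner restricted to heart, muscle, testis or lung.

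The levels differed by complex in these lungs. Over the 9 libraries, the median subunit had a mean FPKM of 68.0 in complex I, 42.8 in complex II, 148 in complex III, 131 in complex IV and 149.7 in complex V. Atp5e, the epsilon subunit of the ATP synthase stalk, was the highest of all 85 at a mean of 339 FPKM. Within complex I the means ran from 11.6 for Ndufs1, the largest iron-sulphur subunit, to 152 for Ndufa7, a small subunit of the matrix arm. Complex II spanned only 28.8 for the flavoprotein Sdha to 50.5 for the iron-sulphur subunit Sdhb. In complex III the core proteins lay far below the small subunits, from 26.9 for Uqcrc2 to 241 for the hinge protein Uqcrh. Complex IV ran from 2.32 for the muscle isoform Cox7a1 to 280.3 for Cox8a, the widely expressed form of subunit 8. The lowest of complex V was Atp5g2, 1 of 3 genes for the same c subunit of the proton-driven ring, at 2.30.

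**Figure D1:**
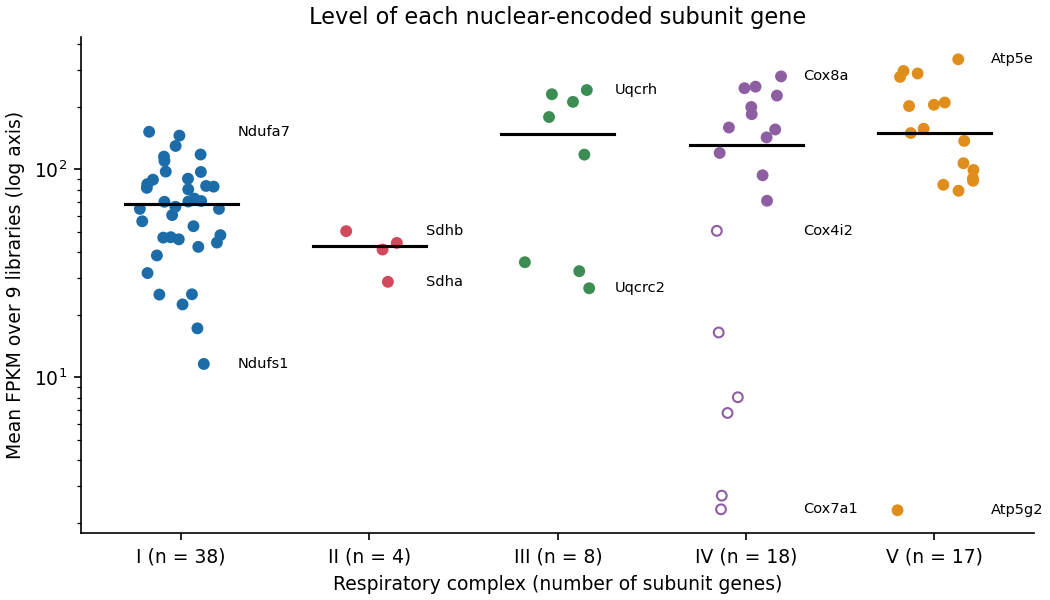
Each point is a subunit gene, placed by its mean FPKM over 9 libraries on a log axis, and the bar is the median of the complex. Open circles are the tissue-restricted isoforms, which lie at the bottom of complex IV. Atp5e is the highest point at 339 FPKM, and Cox7a1 and Atp5g2 are the lowest at 2.32 and 2.30.

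The filter cut close to a few genes. Just inside it were Atp5g2, Cox7a1 and Cox8b, which missed an FPKM of 1 in at least 1 library, while the other 85 genes reached it in all 9. Just outside was the assembly factor Sdhaf3, at 0.36 to 0.79 FPKM. Of the 14 rows not kept, 10 were listed at 0 in every library, among them the testis isoforms Cox7b2 and Cox8c. The pseudogene Ndufs5-ps reached 1.21 in 1 library. No kept gene was below 1 in every library of either group.

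Letters of NRF1 and ETS elements were more frequent in the promoter windows of the subunits than in all windows, although most subunit windows held neither. RefSeq promoter windows of 300 bases (250 before to 50 after the start, GRCm38.p6) were found for 68 of the 85 subunit genes, the restricted isoforms with a window included. The palindromic element of NRF1 (nuclear respiratory factor 1), an activator of nuclear genes for mitochondria, was searched on both strands as GCGC, then any base, then TGCGC. It occurred in 17 of the 68 windows (25%), against 5.19% of the 27025 windows of all genes. The core of the ETS family element, CCGGAAG, was also in 17 (25%), against 9.93%, and 30 windows (44.1%) held at least 1 of them, against 14.0%. The patterns can share a single base where they abut. A TATA box, searched as TATAAA on both strands, was in 7 windows (10.3%), against 15.7% of all. The windows of all genes were not matched to those of the subunits in expression level or base composition, and the part of either in these shares was not tested. A match of letters is not a site of binding, and a window without a match says nothing of the factor. The last 170 bases before the start are printed for 4 widely expressed subunits, 1 each of complexes I, III, IV and V, which were chosen after the search because they held a match. They are followed by the same stretch of the muscle isoforms Cox7a1 and Cox8b. The differences of both isoforms between the groups were above 0, as was that of Uqcr11 among the 4 (0.060). The sequences are 5′ to 3′ on the gene's strand, and capitals mark an NRF1 or ETS match on either strand. The GENCODE start of every gene shown but Cox8b lies slightly before the RefSeq start, so the last bases printed are exonic there.
Ndufs5: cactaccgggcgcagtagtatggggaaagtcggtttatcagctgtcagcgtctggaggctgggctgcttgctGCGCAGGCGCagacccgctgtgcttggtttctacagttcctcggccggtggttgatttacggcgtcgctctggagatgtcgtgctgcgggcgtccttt
Uqcr11: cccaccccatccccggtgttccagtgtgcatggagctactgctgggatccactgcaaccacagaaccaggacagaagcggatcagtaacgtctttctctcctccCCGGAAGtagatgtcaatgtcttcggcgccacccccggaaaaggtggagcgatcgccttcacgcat
Cox6a1: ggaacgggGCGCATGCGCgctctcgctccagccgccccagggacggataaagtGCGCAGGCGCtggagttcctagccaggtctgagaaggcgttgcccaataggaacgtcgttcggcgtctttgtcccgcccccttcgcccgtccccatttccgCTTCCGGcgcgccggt
Atp5e: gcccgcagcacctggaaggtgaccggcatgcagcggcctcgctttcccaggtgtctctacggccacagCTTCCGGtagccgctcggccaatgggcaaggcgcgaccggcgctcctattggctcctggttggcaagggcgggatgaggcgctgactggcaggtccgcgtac
Cox7a1: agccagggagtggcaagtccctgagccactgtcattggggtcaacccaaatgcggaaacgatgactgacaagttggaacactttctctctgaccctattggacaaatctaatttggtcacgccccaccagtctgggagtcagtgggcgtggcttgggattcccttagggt
Cox8b: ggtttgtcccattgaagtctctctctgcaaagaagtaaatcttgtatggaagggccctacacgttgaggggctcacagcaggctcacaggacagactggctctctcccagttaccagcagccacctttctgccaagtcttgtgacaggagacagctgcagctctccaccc

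These stretches lie at chr4:123718187-123718356 for Ndufs5, chr10:80406822-80406991 for Uqcr11, chr5:115348959-115349128 for Cox6a1 and chr2:174464102-174464271 for Atp5e, all on the minus strand. The stretch of Cox7a1 is chr7:30184001-30184170 on the plus strand and that of Cox8b chr7:140900447-140900616 on the minus strand. Cox6a1 held 2 NRF1 matches, which began 162 and 117 bases before the start, and an ETS match 16 bases before it. Ndufs5 held an NRF1 match 98 bases before the start, and Uqcr11 and Atp5e held ETS matches 66 and 102 bases before it. Neither pattern was in the stretches of Cox7a1 and Cox8b. Subunits with an NRF1 match had a median difference between the groups of -0.22 on the log2 scale and those without -0.18, and the corresponding values for ETS were -0.16 and -0.21.

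Most subunits were steady from lung to lung. The median SD of log2(FPKM + 1) over the 9 libraries was 0.286 for the subunits, against 0.564 for all 11817 tested genes, and 76 of 85 subunits were below the latter value. SD on this scale also depends on level, which was higher for the subunits, and its part in the difference was not tested. Ndufa13, also known as GRIM-19, was the steadiest, with an SD of 0.104, followed by the iron-sulphur subunit Ndufs8 at 0.112 and the membrane arm subunit Ndufs5 at 0.129. Ndufs5 was at 94.4, 99.8, 78.5 and 81.4 FPKM in LPS-ALI replicates 1 to 4 and at 81.1, 77.6, 79.3, 90.6 and 82.4 in TMAO replicates 1 to 5, so no library left a narrow band. At the other end were Atp5g2 (1.13), Cox7a1 (0.905), Cox8b (0.897), Ndufa4l2 (0.838) and Cox4i2 (0.764).

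The mean log2(FPKM + 1) of the complex I subunits was 6.14, 6.04, 5.87 and 6.12 in LPS-ALI replicates 1 to 4 and 5.71, 5.88, 5.83, 6.04 and 5.65 in TMAO replicates 1 to 5. That of complex II was 5.38, 5.42, 5.21 and 5.75 in LPS-ALI replicates 1 to 4 and 5.23, 5.42, 5.35, 5.75 and 4.39 in TMAO replicates 1 to 5. TMAO replicate 5 was the lowest library for complexes I, II, III and V, by the widest margin for complex II, and its median tested gene had dropped further still. Set against the median tested gene there, its subunits were therefore high, with a mean of 4.19 over all 85 against 2.98 to 3.23 in the other TMAO libraries and 3.24 to 3.39 in the LPS-ALI libraries. Complex II was the exception, at 2.65 in TMAO replicate 5 against 2.40 to 2.50 in the other TMAO libraries and 2.34 to 2.77 in the LPS-ALI libraries.

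**Figure D2:**
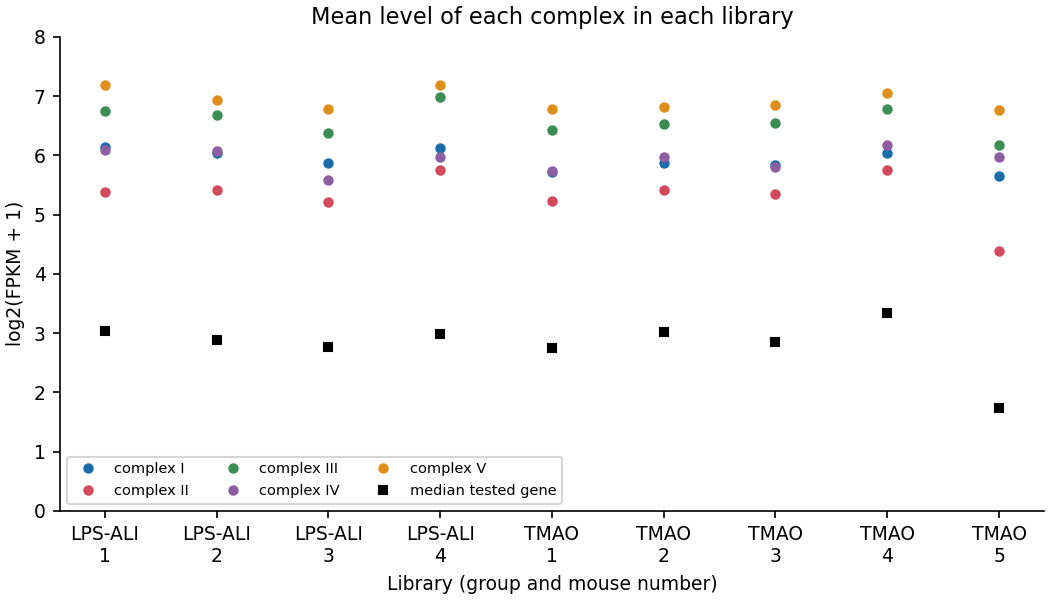
Coloured points give the mean log2(FPKM + 1) of the subunits of each complex in each library, and black squares the median tested gene. In TMAO replicate 5 the median gene is at 1.74 and complex II at 4.39, while complex IV stays at 5.97, within the range of the other libraries.

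The comparison that the study's design implies is of injured lungs with and without TMAO. No subunit passed the test. With limma on log2(FPKM + 1) over the 11817 tested genes, 0 of the 88 genes had an adjusted p under 0.05, as did 0 of all genes (0% called), and the adjusted p of every member was 0.998. None had an unadjusted p under 0.05 either, where limma placed 2.93% of all genes as lower and 0.423% as higher in TMAO. The smallest unadjusted p of a member was 0.101, for Cox7a1. Simulated data of this design recovered 5 of 100 genes changed 2-fold and 70 of 100 changed 4-fold, so most 2-fold changes went uncalled there. The simulation gave every library the same spread, and its changed genes were drawn at random from all tested genes. The subunits had a smaller median SD than all tested genes (0.286 against 0.564), so these rates do not stand for the subunits. In bulk lung, fewer cells of a type and less RNA per cell cannot be told apart.

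The values nevertheless leaned to lower levels in TMAO. Of the 85 subunits 71 (83.5%) had a log2 difference below 0, beside 72.1% of all tested genes. The median differences were -0.20 in complex I, -0.21 in complex II, -0.22 in complex III, -0.19 in complex IV and -0.19 in complex V, against -0.17 for all genes, so relative to the median gene the complexes lay between -0.05 and -0.02. Without TMAO replicate 5 the median of all genes moved to 0.05, and 43.6% of them were below 0. The subunits stayed at -0.16, with 67 of 85 (78.8%) below 0, which put them 0.21 below the median gene, and by complex the medians were -0.19, 0.01, -0.19, -0.17 and -0.13. No member had an unadjusted p under 0.05 in limma there, against 2.94% of all genes that were lower. Without LPS-ALI replicate 4 and TMAO replicate 5 together, 62 of 85 subunits were below 0, beside 38.1% of all genes, with medians of -0.12 and 0.10. Without the X-coded libraries, 81 of 85 subunits were below 0, beside 79.5% of all genes, with medians of -0.23 and -0.22. Median-of-ratios scaling of all 9 libraries centres the libraries on each other. With it 33 of 85 subunits were below 0, beside 51% of all genes, and their median was 0.03. The factor of TMAO replicate 5 was 0.387, against 0.923 to 1.5 in the other libraries, so this scaling raised its values most. The count of subunits below the median gene depended on the setting. Without this scaling it was 49 of 85 with all 9 libraries and 45 without the X-coded libraries. It was 72 without TMAO replicate 5 and 73 without that library and LPS-ALI replicate 4. With median-of-ratios scaling it was 30, and with quantile normalization 46. Without TMAO replicate 5, subunits with exons under 1000 bases were at a median of -0.17, and all tested genes of that length at -0.16. Median-of-ratios scaling without TMAO replicate 5 was not run, and the counts with this scaling given below include that library.

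Markers of several cell types were also lower in the TMAO libraries, while other lists were higher or split. Of the 8 alveolar type 2 markers 7 were above 0, with a median of 0.14 (0.47 without TMAO replicate 5). Endothelial markers were 4 below and 4 above 0, and fibroblast markers 3 and 3. All 5 erythroid markers were below 0, with a median of -1.03 (-0.96 without TMAO replicate 5), and were highest in LPS-ALI replicate 4. Of the 7 ciliated cell markers 6 were tested, and all 6 were below 0, with 4 at an unadjusted limma p under 0.05. Their median was -1.03 (-1.06 without TMAO replicate 5), with sums of 68.8 to 173 FPKM across the LPS-ALI lungs and 47.3 to 95.1 in TMAO. Several were highest in the X-coded LPS-ALI replicates 3 and 4. Rsph1 was at 1.72, 1.81, 10.1 and 11 FPKM in LPS-ALI replicates 1 to 4 and at 1.46 to 2.31 in TMAO. Tekt1 was at 0.95, 0.54, 5.45 and 4.72, and at 0.45 to 1.70 in TMAO. Cfap126 was at 4.35, 4.30, 16.1 and 15.3, and at 1.46 to 4.11 in TMAO. The marker medians were not computed without the X-coded libraries. All 4 tested T and NK cell markers of 7 were below 0, with 3 at such a p, a median of -1.33 (-1.12 without TMAO replicate 5), and sums of 27.9 to 84.3 and 10.1 to 19.95 FPKM. The 4 tested monocyte markers of 5 were all below 0, 2 of them at such a p, with a median of -0.78 (-0.70 without TMAO replicate 5) and sums of 55.5 to 100 and 28.9 to 47.4 FPKM. The 4 tested platelet markers of 5 were also all below 0, 2 of them at such a p, with a median of -0.86 (-0.80 without that library) and sums of 31.2 to 75.02 and 18.6 to 27.4 FPKM. No marker of the ciliated cell, T and NK cell, monocyte and platelet lists was at 0 in every library. The part of the markers of any list in the lower subunit levels was not tested.

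**Figure D3:**
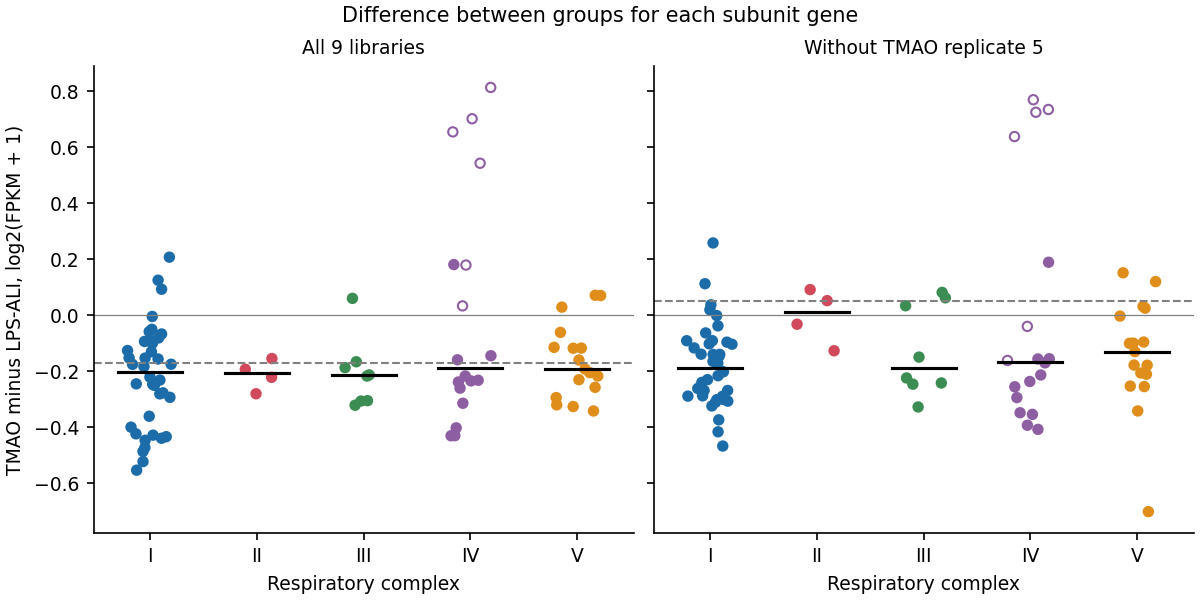
Each point is the log2 difference, TMAO minus LPS-ALI, of a subunit gene, with the median of each complex as a bar, 0 as a thin line and the median of all tested genes as a dashed line. Open circles are tissue-restricted isoforms. Between the panels the dashed line moves from -0.17 to 0.05, complex II moves from -0.21 to 0.01 and the medians of complexes I, III, IV and V stay between -0.22 and -0.13.

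The number of members at an unadjusted p under 0.05 depended on how libraries were weighted. When limma gave each library a weight by its spread, which set TMAO replicate 5 to a weight of 0.0879 and LPS-ALI replicate 2 to 5.03, 17 members had an unadjusted p under 0.05, all lower in TMAO, beside 8.91% of all genes. None of them passed the adjusted threshold in limma, although 51 other genes did. The smallest p was that of Cox6c, a small structural subunit of complex IV, with a weighted log2 difference of -0.46 (limma, SE 0.13, unadjusted p = 0.00322, adjusted p = 0.14). Without weights its log2 difference was -0.40 with an SE of 0.25, so the SE changed more than the difference. Ndufb7, also among the 17, moved towards 0, from -0.44 without weights (SE 0.29) to -0.32 with them (SE 0.14). Cox6c was at 305, 293, 239 and 322 FPKM in LPS-ALI replicates 1 to 4 and at 214, 209, 207, 249 and 212 in TMAO replicates 1 to 5. TMAO replicate 4 lay above LPS-ALI replicate 3, and the other 4 TMAO libraries lay below all LPS-ALI libraries.

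Groups that did not overlap at all were rare. Only Ndufb7 and Ndufa13, both of complex I, had every TMAO library below every LPS-ALI library, beside 1.36% of all tested genes, and 0 members had every TMAO library above, beside 0.118%. Ndufb7 was at 128, 123, 129 and 131 FPKM in LPS-ALI replicates 1 to 4 and at 85.2, 108, 102, 119 and 64.6 in TMAO replicates 1 to 5. This subunit of the membrane arm (chr8:83566671-83571626, GRCm38) was even across the LPS-ALI lungs and spread downwards in TMAO, with replicate 5 the lowest (limma log2 difference -0.44, SE 0.29, unadjusted p = 0.147). Ndufa13 was at 34.5, 34.5, 33.1 and 32.6 FPKM in LPS-ALI replicates 1 to 4 and at 30.5, 27.6, 31.8, 32.1 and 29.1 in TMAO replicates 1 to 5. Ndufa13 (chr8:69894180-69902558) differed by little, 33.7 ± 0.95 (SD, n = 4) against 30.2 ± 1.86 (SD, n = 5), and both groups were narrow (limma log2 difference -0.15, SE 0.29, unadjusted p = 0.601). Of its exon bases, 30.0% are shared with Tssk6 on the opposite strand, and no source used here gives the strand setting of the counting.

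Complex I had 35 of 38 subunits below 0 (17 with median-of-ratios scaling), from -0.55 for Ndufa10 to 0.21 for Ndufc1. Ndufa7 was at 186, 168, 113 and 182 FPKM in LPS-ALI replicates 1 to 4 and at 122, 151, 147, 135 and 162 in TMAO replicates 1 to 5. Ndufa7, the most abundant complex I subunit, had overlapping groups, with LPS-ALI replicate 3 below all other libraries. Ndufa10 was at 39.5, 26.7, 25.7 and 25.7 FPKM in LPS-ALI replicates 1 to 4 and at 32.3, 22.1, 19.2, 27.2 and 6.98 in TMAO replicates 1 to 5. Ndufa10, on the matrix side of the membrane arm, had LPS-ALI replicate 1 at the top and TMAO replicate 5 at the bottom, and without the latter its log2 difference was -0.22. Ndufc1 was at 93.2, 90.2, 51.3 and 64.8 FPKM in LPS-ALI replicates 1 to 4 and at 82.2, 97.2, 80.4, 90.0 and 73.0 in TMAO replicates 1 to 5. Ndufc1, a small membrane arm subunit, had the largest positive difference, with its lowest values in the X-coded LPS-ALI replicates 3 and 4, and without these libraries it was -0.12.

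The 7 core subunits of complex I carry NADH oxidation and the chain of iron-sulphur clusters to ubiquinone. All had differences below 0, beside 72.1% of all tested genes. With median-of-ratios scaling Ndufs8 and Ndufv1 were at 0.16 and 0.049, and the others stayed below 0. Without LPS-ALI replicate 4 and TMAO replicate 5 together, Ndufv1 was at 0.10 and the others stayed below 0. Ndufs1 was at 14.0, 13.6, 14.9 and 12.2 FPKM in LPS-ALI replicates 1 to 4 and at 9.10, 11.3, 11.6, 14.2 and 3.65 in TMAO replicates 1 to 5. Ndufs1 was even over the LPS-ALI lungs, and TMAO replicate 5 was lowest. Ndufs8, by contrast, was at 35.8 to 42.1 FPKM across the LPS-ALI lungs and 33.8 to 41.0 in TMAO. Its limma log2 difference was -0.067.

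Accessory subunits held other large differences of complex I. Ndufb8 was at 118, 110.0, 98.3 and 136 FPKM in LPS-ALI replicates 1 to 4 and at 74.8, 95.1, 84.9, 100.4 and 62.2 in TMAO replicates 1 to 5. Ndufb8, a membrane arm subunit, had a log2 difference of -0.47 and overlapped through LPS-ALI replicate 3 and TMAO replicate 4. The mitochondrial acyl carrier protein Ndufab1 ranged from 65.8 to 91.7 FPKM across LPS-ALI and from 32.2 to 75.3 in TMAO, with TMAO replicate 5 lowest. Ndufb4 was at 17.5 to 24.0 FPKM across the LPS-ALI lungs and 12.6 to 18.3 in TMAO (log2 difference -0.45), while its processed pseudogene Ndufb4c was listed at 108 to 142 and 102 to 118. No source used here gives how reads that match both were divided, so the values of both are uncertain.

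The difference of complex II moved most with TMAO replicate 5. All 4 subunits were below 0 with it, 2 of 4 without it and 2 of 4 with median-of-ratios scaling of all 9 libraries. Sdhb was at 53.2, 57.0, 35.2 and 67.1 FPKM in LPS-ALI replicates 1 to 4 and at 47.2, 52.1, 50.5, 66.7 and 25.7 in TMAO replicates 1 to 5. Sdhb, the most abundant of the 4, was lowest in TMAO replicate 5, and its log2 difference went from -0.15 to 0.052 without that library. Sdhd was at 43.1, 37.7, 39.4 and 62.6 FPKM in LPS-ALI replicates 1 to 4 and at 34.7, 44.5, 39.4, 45.9 and 23.6 in TMAO replicates 1 to 5. Sdhd, a membrane anchor, was highest in LPS-ALI replicate 4 and lowest in TMAO replicate 5, and it had the most negative difference of the complex (limma log2 difference -0.28, SE 0.32, unadjusted p = 0.399), which was -0.13 without TMAO replicate 5 and -0.13 without the X-coded libraries. Sdha was at 30.3, 30.3, 28.3 and 31.1 FPKM in LPS-ALI replicates 1 to 4 and at 28.0, 29.2, 31.6, 40.7 and 10.1 in TMAO replicates 1 to 5. Sdha was nearly flat apart from TMAO replicates 4 and 5, which were the extremes in either direction. When LPS-ALI replicate 4 and TMAO replicate 5 were left out together, all 4 genes had differences above 0, with a median of 0.09, beside 61.9% of all genes above 0 in that comparison. The assembly factors Sdhaf1, Sdhaf2 and Sdhaf4 had log2 differences of -0.25, -0.14 and 0.17, or -0.11, 0.061 and 0.17 without TMAO replicate 5. Without the X-coded libraries Sdhaf4 was at -0.17.

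In complex III, 7 of 8 subunits were below 0, or 3 of 8 with median-of-ratios scaling. Uqcrh was at 249, 245, 231 and 311 FPKM in LPS-ALI replicates 1 to 4 and at 213, 229, 216, 208 and 266 in TMAO replicates 1 to 5. Uqcrh, the hinge protein near cytochrome c1, had TMAO replicate 5 inside the LPS-ALI range, above the other TMAO libraries. Uqcrc1 was at 40.5, 34.2, 26.4 and 38.4 FPKM in LPS-ALI replicates 1 to 4 and at 31.0, 30.5, 35.5, 46.0 and 9.57 in TMAO replicates 1 to 5. Core protein 1 (Uqcrc1) showed the reverse, with TMAO replicate 5 at the bottom and replicate 4 at the top of all 9 libraries, and its log2 difference went from -0.32 to 0.034 without replicate 5. Uqcr11 was at 138, 129, 87.9 and 109 FPKM in LPS-ALI replicates 1 to 4 and at 104, 115, 127, 133 and 118 in TMAO replicates 1 to 5. The small subunit Uqcr11 was the only complex III subunit above 0 (limma log2 difference 0.060, SE 0.28, unadjusted p = 0.831), its groups overlapped fully, and without the X-coded libraries it was at -0.16. The Rieske iron-sulphur protein Uqcrfs1 was at 31.5 to 59.0 FPKM in LPS-ALI, where replicate 4 was highest, and at 20.1 to 38.9 in TMAO. Cytochrome c1 itself (Cyc1), whose symbol lies outside the prefixes, was at 23.8 to 33.4 and 14.2 to 32.3 FPKM, with a log2 difference of -0.31.

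Complex IV was divided. Of its 18 genes, 11 had differences below 0, and the 7 above 0 were the 6 restricted isoforms and Cox7a2l, while with median-of-ratios scaling 7 of the 18 were below 0. Cox8a was at 310.1, 307, 244 and 325 FPKM in LPS-ALI replicates 1 to 4 and at 232, 234, 227, 299.6 and 345 in TMAO replicates 1 to 5. Cox8a overlapped between the groups, with TMAO replicate 5 the highest of all 9 libraries. Cox5a was at 90.1, 98.6, 94.3 and 154 FPKM in LPS-ALI replicates 1 to 4 and at 82.2, 95.9, 85.3, 98.6 and 45.6 in TMAO replicates 1 to 5. Cox5a, a matrix-side subunit, had the most negative difference of the complex (limma log2 difference -0.43, SE 0.32, unadjusted p = 0.204), set by LPS-ALI replicate 4 at the top and TMAO replicate 5 at the bottom, while the other 7 libraries lay between 82.2 and 98.6 FPKM. Its log2 difference was -0.24 without TMAO replicate 5 and -0.062 without both libraries. Cox7a2l was at 153, 155, 81.6 and 152 FPKM in LPS-ALI replicates 1 to 4 and at 153, 149, 155, 141 and 145 in TMAO replicates 1 to 5. Cox7a2l joins complexes III and IV into supercomplexes, and it was even in 8 libraries and low in LPS-ALI replicate 3 alone. Its log2 difference was 0.18, or -0.051 without the X-coded libraries.

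Complex V had 14 of 17 subunits below 0, and 4 of 17 with median-of-ratios scaling. Atp5e was at 426, 372, 256 and 339.8 FPKM in LPS-ALI replicates 1 to 4 and at 286, 345, 278, 381 and 365 in TMAO replicates 1 to 5. Atp5e overlapped between the groups, with both the highest and the lowest library in LPS-ALI. Atp5pb was at 101, 93.6, 80.9 and 122 FPKM in LPS-ALI replicates 1 to 4 and at 82.1, 87.0, 87.1, 91.3 and 48.7 in TMAO replicates 1 to 5. Atp5pb, subunit b of the stator stalk, had the most negative difference (limma log2 difference -0.34, SE 0.30, unadjusted p = 0.278), with TMAO replicate 5 below all other libraries, and without that library it was -0.18. Atp5c1 was at 86.7, 88.1, 57.5 and 98.1 FPKM in LPS-ALI replicates 1 to 4 and at 77.2, 97.0, 79.7, 101 and 74.3 in TMAO replicates 1 to 5. The rotor subunit gamma (Atp5c1) had the largest positive difference (limma log2 difference 0.071, SE 0.29, unadjusted p = 0.811), with LPS-ALI replicate 3 lowest, and was at -0.036 without the X-coded libraries. The alpha and beta subunits of the catalytic head, Atp5a1 and Atp5b, were at 30.7 and 103 FPKM in TMAO replicate 5, each the lowest of the 9 libraries, and their log2 differences without it were -0.0031 and 0.032.

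Position in the complex was also compared. The 20 core subunits (the redox and ubiquinone-binding subunits of complexes I to III, and the head, central stalk and c ring of complex V) had a median difference of -0.24, with 18 below 0, and the 59 accessory subunits -0.21, with 53 below 0. Without TMAO replicate 5 the core subunits were at -0.11, with 15 of 20 below 0, and the accessory subunits at -0.21, with 50 of 59 below 0. Without LPS-ALI replicate 4 and TMAO replicate 5 together, 9 of 20 core and 51 of 59 accessory subunits were below 0. With median-of-ratios scaling of all libraries 10 of 20 core and 23 of 59 accessory subunits were below 0. Of all tested genes, 72.1% were below 0 with all 9 libraries and 43.6% without TMAO replicate 5. That share was 38.1% without both libraries and 51% with median-of-ratios scaling.

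The tissue-restricted isoforms stood on the other side of 0. All 6 (Cox4i2, Cox6a2, Cox6b2, Cox7a1, Cox8b and Ndufa4l2) had differences above 0, with a median of 0.60, and none passed the test. With median-of-ratios scaling all 6 were above 0 as well, and without the X-coded libraries 4 of 6 were below 0, with a median of -0.20. Each was set against its widely expressed partner in the same library as a log2 ratio of (FPKM + 1), which does not change with the scaling of the library beyond the added 1. Across 8 such pairs, the 2 c subunit pairs included, the adjusted exact p ranged from 0.381 to 0.992.

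Cox4i2 was at 66.8, 60.8, 17.5 and 24.5 FPKM in LPS-ALI replicates 1 to 4 and at 57.1, 69.2, 30.7, 88.8 and 41.0 in TMAO replicates 1 to 5. Cox4i2 is the lung isoform of subunit 4, a form tied to oxygen sensing. LPS-ALI replicates 1 and 2 were far above replicates 3 and 4, and the TMAO libraries overlapped both. Its partner Cox4i1 was at 202 to 358 FPKM across the LPS-ALI lungs and 191 to 249 in TMAO. The log2 ratio of Cox4i2 to Cox4i1 was -1.87, -2.13, -3.46 and -3.82 in LPS-ALI replicates 1 to 4 and -1.96, -1.70, -2.95, -1.48 and -2.20 in TMAO replicates 1 to 5. The groups differed by 0.76 (exact permutation p = 0.19, 0.381 after adjustment). The lowest ratios were those of LPS-ALI replicates 3 and 4, which carry X codes, and without them the difference was -0.06.

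Ndufa4l2, the hypoxia-induced paralogue of Ndufa4, ordered the libraries in nearly the same way. Ndufa4l2 was at 21.7, 20.9, 5.09 and 5.66 FPKM in LPS-ALI replicates 1 to 4 and at 25.5, 20.4, 9.30, 25.6 and 14.0 in TMAO replicates 1 to 5. Again LPS-ALI replicates 3 and 4 were lowest, with TMAO replicate 3 next. Its ratio to Ndufa4 differed by 0.80 (exact permutation p = 0.19, 0.381 after adjustment), and by -0.15 without the X-coded libraries. The 7 smooth muscle and pericyte markers summed to 48.0 to 133 FPKM across the LPS-ALI lungs and 42.9 to 199 in TMAO, with none at 0 in all libraries, 4 lower and 3 higher in TMAO and 0 with an unadjusted limma p under 0.05. Their part in the level of Cox4i2 and Ndufa4l2 was not tested.

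The heart and muscle isoforms were near the lower limit of the table. Cox7a1 was at 0, 2.71, 0.40 and 2.60 FPKM in LPS-ALI replicates 1 to 4 and at 0.59, 2.58, 5.83, 3.07 and 3.13 in TMAO replicates 1 to 5. Cox7a1 was listed at 0 in LPS-ALI replicate 1 and peaked in TMAO replicate 3, and its ratio to Cox7a2 differed by 1.05 (exact permutation p = 0.103, 0.381 after adjustment), or by 1.24 without the X-coded libraries. Cox8b was at 2.98, 2.00, 0.50 and 0.64 FPKM in LPS-ALI replicates 1 to 4 and at 0.73, 1.58, 3.56, 9.79 and 2.55 in TMAO replicates 1 to 5. Cox8b was highest in TMAO replicate 4, and its ratio to Cox8a differed by 0.86 (exact permutation p = 0.151, 0.381 after adjustment). Without the X-coded libraries the log2 difference of Cox8b went from 0.70 to 0.13, and that of the ratio to 0.36. Cox6a2 was at 10.3, 5.40, 4.79 and 3.13 FPKM in LPS-ALI replicates 1 to 4 and at 4.20, 5.57, 3.98, 5.52 and 17.8 in TMAO replicates 1 to 5. The value of Cox6a2 in TMAO replicate 5 was above all others, and its ratio to Cox6a1 differed by 0.41 (exact permutation p = 0.484, 0.646 after adjustment), while the log2 difference of the gene was 0.18 with that library and -0.16 without it. Leaving out 1 library at a time put the ratio of Cox6a2 between 0.052 and 0.63, and without the X-coded libraries it was 0.17. The 7 cardiomyocyte markers summed to 8.06 to 49.1 FPKM across the LPS-ALI lungs and 12.2 to 79.9 in TMAO, with the maximum in TMAO replicate 3, and none was at 0 in all libraries. Their part in the values of these isoforms was not tested. The testis isoform Cox6b2 was at 5.12 to 11.3 FPKM across the LPS-ALI lungs and 4.32 to 11.9 in TMAO, and its ratio to Cox6b1 differed by 0.27 (exact permutation p = 0.444, 0.646 after adjustment). That ratio ran from 0.014 to 0.44 when 1 library was left out, and was 0.031 without the X-coded libraries. Over the same omissions the ratio of Cox4i2 ran from 0.43 to 1.08, that of Ndufa4l2 from 0.41 to 1.13, that of Cox7a1 from 0.67 to 1.31 and that of Cox8b from 0.53 to 1.10.

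**Figure D4:**
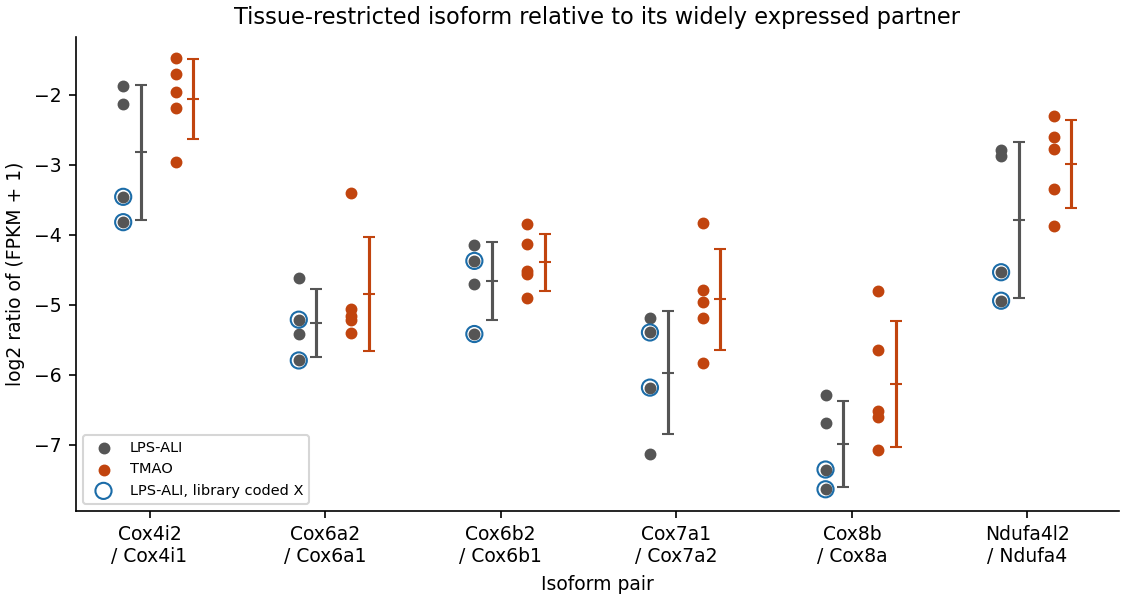
Points are the log2 ratio of (FPKM + 1) of a restricted isoform to its widely expressed partner in each library, with mean and SD beside them (4 LPS-ALI, 5 TMAO). Rings mark the X-coded LPS-ALI libraries, which hold the lowest ratios of Cox4i2 (-3.46 and -3.82) and Ndufa4l2 (-4.53 and -4.94).

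The c subunit of complex V is made from 3 genes that encode the same mature protein. Atp5g3 was at 166.7, 152, 134 and 248 FPKM in LPS-ALI replicates 1 to 4 and at 139, 148, 155, 182 and 87.5 in TMAO replicates 1 to 5. Atp5g3 supplied most of the transcripts per length, followed by Atp5g1 at 75.6 to 95.6 FPKM across the LPS-ALI lungs and 62.9 to 93.5 in TMAO. Atp5g2 was at 4.28, 0, 2.11 and 2.92 FPKM in LPS-ALI replicates 1 to 4 and at 2.91, 0, 1.35, 0 and 7.12 in TMAO replicates 1 to 5. Atp5g2 was listed at 0 in 3 libraries although these genes are widely expressed, so its values, and the ratios to it, are uncertain. The ratio of Atp5g1 to Atp5g2 differed by 0.027 (exact permutation p = 0.992, 0.992 after adjustment) and that of Atp5g3 to Atp5g2 by -0.037 (exact permutation p = 0.968, 0.992 after adjustment).

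Transcript length moved with the values of TMAO replicate 5. Across the 85 subunits, the deviation of that library from the gene's mean over the 9 libraries had a Pearson r of -0.49 with log2 annotated exon length, a description across genes of 1 library. In the other libraries r ran from -0.01 to 0.26. The 22 subunits with exons under 1000 bases had a median deviation of 0.02 in TMAO replicate 5, the 33 of 1000 to under 2000 bases -0.05, and the 30 of 2000 bases or more -0.72. All tested genes in these classes were at -0.19, -0.62 and -1.07 in that library. Over all 9 libraries the median difference between the groups was -0.16, -0.18 and -0.27 for short, middle and long subunits. Without TMAO replicate 5 these were -0.17, -0.15 and -0.18, while all genes of the same classes were at -0.16, -0.10 and 0.08. The length classes were added after the data were seen. No source used here gives the gene lengths behind the FPKM values.

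**Figure D5:**
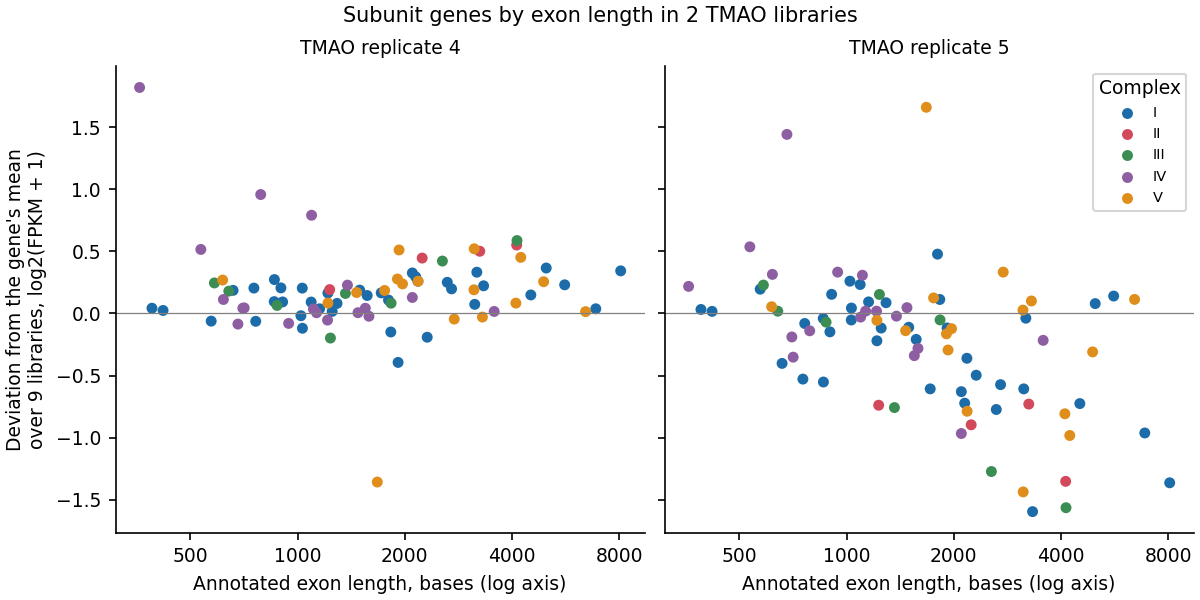
Each point is a subunit gene, placed by annotated exon length in bases (log axis) and by the deviation of its log2(FPKM + 1) in a library from its mean over 9 libraries. In TMAO replicate 5 long genes lie below short genes (r = -0.49, n = 85), and in TMAO replicate 4 they do not (r = -0.01).

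The mitochondrially encoded partners were measured in the same libraries. The 13 mitochondrial genes for subunits of complexes I, III, IV and V held 32.7% to 46.7% of the summed FPKM across the LPS-ALI lungs and 34.7% to 49.7% in TMAO, and the 88 nuclear genes 0.572% to 0.974% and 0.54% to 0.985%. Of the 7 complex I genes of the mitochondrial genome, 7 had differences above 0, with a median of 0.09, and none had an unadjusted p under 0.05 in limma. The nuclear minus mitochondrial level of complex I was -8.06, -8.39, -8.93 and -7.27 in LPS-ALI replicates 1 to 4 and -9.00, -8.48, -8.54, -7.81 and -9.07 in TMAO replicates 1 to 5, on the log2 scale. The groups overlapped, with LPS-ALI replicate 4 highest, and the mean difference was -0.41. For complexes III, IV and V it was -0.19, -0.07 and -0.36, in each complex smaller than the SD of either group. When 1 library was left out, the mean differences of complexes I, III, IV and V ran from -0.67 to -0.12, -0.48 to -0.018, -0.32 to 0.056 and -0.58 to -0.15. Without LPS-ALI replicate 4 and TMAO replicate 5 together, they were 0.0066, 0.15, 0.13 and -0.037. With quantile normalization they were -0.21, 0.078, 0.066 and -0.11, so over these settings the sign changed in complexes I, III and IV and stayed below 0 in complex V.

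Genes that feed, assemble or regulate the chain were also without a call. None of them had an adjusted p under 0.05 in limma, and Coq8b was the only gene among them with an unadjusted p under 0.05. Of all tested genes, 2.93% were lower and 0.423% higher in TMAO at such a p. Coq8b was at 8.71, 5.27, 12.5 and 18.3 FPKM in LPS-ALI replicates 1 to 4 and at 3.74, 5.76, 6.28, 7.44 and 1.08 in TMAO replicates 1 to 5. This kinase-like protein of ubiquinone synthesis was lower in TMAO by 1.09 on the log2 scale (limma, SE 0.46, unadjusted p = 0.0323, adjusted p = 0.998). Its highest values were in the X-coded LPS-ALI replicates 3 and 4 and its lowest in TMAO replicate 5. LPS-ALI replicates 1 and 2, at 8.71 and 5.27, overlapped the 3.74 to 7.44 of TMAO replicates 1 to 4. Its difference without these libraries is not given here. Of 11 ubiquinone genes 10 were below 0, beside 72.1% of all tested genes. The median of these 11 was -0.25, or -0.11 without TMAO replicate 5. Cytochrome c (Cycs), the carrier between complexes III and IV, was at 18.6 to 42.0 FPKM across the LPS-ALI lungs and 14.8 to 23.2 in TMAO (log2 difference -0.44). All 13 citrate cycle enzymes were below 0, with a median of -0.34 that went to -0.05 without TMAO replicate 5. Of the assembly factors tested, 12 of 17 for complex I, 5 of 5 for complex III, 13 of 19 for complex IV and 2 of 4 for complex V were below 0, and without TMAO replicate 5 their medians were 0.01, -0.11, 0.01 and 0.14. Among regulators of mitochondrial biogenesis 7 of 10 were below 0, with a median of -0.26 that became 0.10 without that library.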

How the data were processed

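Total RNA from 9 mouse lungs was ribosome-depleted and made into NEBNext libraries, per the labels' protocols. The authors deposited FPKM values with 2 decimals, 1 column per library, and the submitters' processing notes name fastp, HISAT2, SAMtools, featureCounts and mm10, with no versions. No source used here gives the strand setting, annotation or gene lengths. FPKM are not counts, so log2(FPKM + 1) was tested with limma 3.58.1 in R 4.3.3 (mean-variance trend, two-sided, Benjamini-Hochberg over all tested genes, threshold 0.05) on the 11817 genes at 1 FPKM or more in at least 4 libraries. Differences are TMAO minus LPS-ALI, and the added 1 understates changes of low genes. Titles number the mice, so p-values measure the spread between mice. Isoform ratios were compared with an exact two-sided permutation test over samples (126 arrangements, smallest possible p 0.00794), with Benjamini-Hochberg adjustment over 8 pairs. Medians over complexes are descriptions. Read totals are not given, and relative depths came from the spacing of low values, and lay within 0.1 (log2) of the most frequent ratio for 28 of 36 pairs. No library was a copy of another (at most 63 equal values in a pair). Of the 52381 identifiers 52073 matched GENCODE M21 on GRCm38, the assembly of mm10, which gave positions, exon lengths and overlaps. The fit was tested on simulated data.

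The members and gene lists were chosen with earlier results of these data known. Named were, per complex, the subunit with the highest mean and those with the largest and smallest difference, members whose groups did not overlap, both genes of each isoform pair and genes next to the filter. Other members were named after their values were seen, and the values of 1 member are not reported here. Exons of 35 members overlap another gene. Alternatives were other pseudocounts, filters, scalings and variance models, a block on mouse number, and leaving out libraries. Figures were made with matplotlib 3.10.9 in Python 3.11.15.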

Additional observations from a re-analysis of the deposited data

Results flagged for a closer look

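Of 106 groups of 4 or 5 libraries that were tested for a library far from the others (Dixon's 95% critical value), 11 were picked out, and chance picks out about 1 in 20. TMAO replicate 5 accounted for most. Its subunits, as mean log2(FPKM + 1) minus the median tested gene, were at 3.92 for complex I, 4.43 for complex III, 4.23 for complex IV, 5.03 for complex V and 4.19 for all 85, each above the other TMAO libraries. In the same library Atp5pb, subunit b of the ATP synthase stalk, was low at 48.7 FPKM against 82.1 to 91.3 in the other TMAO libraries. Cox6a2, the heart and muscle isoform of subunit 6A, was high there at 17.8 FPKM against 3.98 to 5.57, and its log2 ratio to Cox6a1 was -3.40 against -5.41 to -5.05.

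The mean log2(FPKM + 1) of complex V in TMAO replicate 4 was 7.05, above 6.77 to 6.85 in the other TMAO libraries. In the LPS-ALI group Cox5a was at 153.61 FPKM in replicate 4 against 90.1 to 98.6 in the others, and Ndufa10 at 39.5 FPKM in replicate 1 against 25.7 to 26.7.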

How the results depend on the processing

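Over 25 other settings, 1078 of 1168 recomputed values stayed as reported, which for tested values means the same direction and side of the threshold, for counts within 1.5 times, and for medians over complexes and nuclear-to-mitochondrial levels a move smaller than 1 SD between libraries. Of these, 54 medians and levels near 0 changed sign within that spread. No named gene passed the adjusted threshold of 0.05 under any setting. The values printed next are log2 differences of genes and differences of log2 isoform ratios that changed sign, and the cause was not tested. With median-of-ratios scaling the genes were Atp5e 0.17, Atp5g1 0.0014, Atp5g2 0.076, Cox4i1 0.016, Cox6b1 0.00075, Cox8a 0.075, Ndufa13 0.078, Ndufa4 0.089, Ndufa7 0.077, Sdhb 0.073 and Uqcrh 0.046, and the ratio Atp5g1/Atp5g2 -0.075. With quantile normalization they were Atp5e 0.084, Atp5g2 0.055, Ndufa13 0.038, Ndufa4 0.042 and Sdhb 0.10, and Atp5g1/Atp5g2 -0.079. Removing mitochondrial, haemoglobin and small RNA genes gave Atp5e 0.038. Library weights gave Atp5c1 -0.0060, Atp5g2 0.32, Cox4i2 -0.13, Cox6a2 -0.30, Cox6b2 -0.12, Ndufa4l2 -0.12 and Uqcr11 -0.094, with 51 genes past the threshold and 17 members at an unadjusted p under 0.05 in limma. Without a filter 3 members had such a p, and the share of all genes at such a p in that setting is not given here. Pseudocounts of 0.1 and 0.5 put Atp5g3/Atp5g2 at 0.42 and 0.091. Without the X-coded libraries the genes were Atp5c1 -0.036, Atp5g2 0.044, Cox4i2 -0.24, Cox6a2 -0.22, Cox6b2 -0.17, Ndufa4l2 -0.25, Ndufc1 -0.12 and Uqcr11 -0.16, and the ratios Cox4i2/Cox4i1 -0.059, Ndufa4l2/Ndufa4 -0.15 and Atp5g1/Atp5g2 -0.26. Without LPS-ALI replicate 4 and TMAO replicate 5 together, the genes were Atp5g3 0.049, Cox6a2 -0.38, Cox6b2 -0.20, Sdhb 0.17, Sdhd 0.031 and Uqcrc1 0.085, and the ratios Cox6a2/Cox6a1 -0.13, Cox6b2/Cox6b1 -0.12 and Atp5g3/Atp5g2 0.59. In that setting 1 member, Cox7a1, had an unadjusted p under 0.05 in limma, with a log2 difference of 1.03. Of the 11519 genes tested there, 510 were higher and 328 lower in TMAO at such a p.

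Leaving out each library in turn gave 0 to 3 genes past the threshold and 0 to 1 members with an unadjusted p under 0.05 in limma. Without LPS-ALI replicate 4 that member was Cox7a1, with a log2 difference of 1.08. The shares of all genes at such a p are not given here for each omission. The genes that changed sign ranged as Atp5e -0.20 to 0.044, Atp5g2 -0.76 to 0.053, Cox6b2 -0.13 to 0.21, Atp5c1 -0.092 to 0.16, Uqcr11 -0.064 to 0.15, Cox6a2 -0.16 to 0.45, Sdhb -0.34 to 0.052 and Uqcrc1 -0.50 to 0.034, and the ratios as Atp5g1/Atp5g2 -0.37 to 0.58 and Atp5g3/Atp5g2 -0.45 to 0.57. The correlations of the deviations of same-numbered mice were 0.06, -0.01, -0.03 and -0.13, within the -0.23 to 0.29 of different-numbered mice. With so few pairs these values cannot tell whether the mice were paired in some way. With the mouse number as a replicate block the genes that changed sign were Cox6a2 -0.16, Cox6b2 -0.040, Sdhb 0.052 and Uqcrc1 0.034, and no count of calls changed. Because the fifth TMAO mouse has no partner, the block leaves TMAO replicate 5 without weight. Absolute depth is unknown, and values of Atp5g2, Cox7a1 and Cox8b near the filter rest on few reads.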
